A study of Triticum aestivum and Triticum urartu and Aegilops speltoides with 12 samples.

Results

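Seedlings of hexaploid wheat were compared with seedlings of Aegilops speltoides on 4 of the 12 arrays of the series, chosen by their titles. The titles ABD-RNA and B-RNA each cover 2 arrays. The levels of the features that differed were then read on the 2 arrays of Triticum urartu and the 2 of Aegilops tauschii. Rye and a line with the 2BS.2RL translocation, with 2 arrays each, entered the shared estimate of spread. Their levels are also given in places. All plants were grown to the third leaf stage for 10 days without any stated treatment, and leaves and roots were harvested together. Each array held Cy3-labelled total RNA of 2 seedlings, and the 2 arrays of a plant are described as biological replicates. The labels call the B-RNA plants the B genome progenitor of wheat. No cultivar or accession of any plant is given in the sources used here, and how many genotypes stand behind each pair of arrays is not known.

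Bread wheat is an allohexaploid: it carries the A, B and D genomes of separate wild grasses, and many genes are present as homoeologous copies, one from each genome. T. urartu is the donor of the A genome and Ae. tauschii of the D genome. Ae. speltoides is the living species closest to the B genome donor, and its own genome, called S, is not the wheat B genome. A transcript level in wheat is therefore a joint level of the A, B and D copies that a probe can read, whereas a diploid contributes a single genome. A probe can read a diverged copy less well than an identical one, so a difference between plants can be one of sequence match or of transcript level, and the arrays cannot tell these apart. In RNA of whole seedlings, fewer cells of a type and less RNA per cell cannot be told apart either.

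The array measured 56855 features, of which 56843 were read by 2 probes and 12 by 1 probe. The feature IDs are not paired with gene names in the files, and 0 of them matched the gene table used here, so only 4 IDs are printed and tissue markers could not be checked. The authors' deposited RMA intensities were taken as log2, and a level below is a log2 intensity. Replicate arrays correlated across features at r = 0.990 in wheat and 0.968 in Ae. speltoides, the lowest value of the 6 plants. The replicates lay at least 1 log2 apart in 1.54% of features in wheat and in 6.07% in Ae. speltoides. Wheat arrays correlated with Ae. speltoides arrays at 0.871 to 0.879.

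The random-sequence control, a summary of 6570 probes on each array, served as the background level. It read 6.56 and 6.50 on the wheat arrays and 7.30 and 7.25 on the Ae. speltoides arrays. Wheat minus Ae. speltoides was -0.75 on the log2 scale (means 6.53 ± 0.04 and 7.27 ± 0.04, SD, n = 2 each), with no overlap of the arrays. All 7 sGFP controls were lower in wheat as well, with differences of -0.21 to -0.90. These values touch every difference of dim features below.

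Hexaploid wheat and Ae. speltoides differed in 10159 features, 17.9% of those tested. A feature was called where limma's adjusted p was under 0.05 and the difference was at least 1 log2, which is 2-fold. Levels were higher in wheat for 6086 features (10.7% of all) and lower for 4073 (7.16%). The higher features differed more strongly. Their median difference was 2.10 (log2, 4.28-fold), with the middle 50% between 1.45 and 3.11. The lower features had a median difference of -1.33 (2.52-fold), with the middle 50% between -1.73 and -1.13. A difference of at least 2 log2 was found in 3229 features higher and 665 features lower in wheat. At least 4 log2 was reached by 734 and 84, and at least 5 log2 by 282 and 34. The arrays did not overlap between the plants in any of these 10159 features. Over all features, both wheat arrays lay above both Ae. speltoides arrays in 26.5% and below them in 45.5%.

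The features higher in wheat had median levels of 10.54 and 10.51 on the wheat arrays and of 7.93 and 8.03 on the Ae. speltoides arrays. On the other progenitors' arrays they lay between these, at 9.58 and 9.54 in T. urartu and at 9.67 and 9.62 in Ae. tauschii. The features lower in wheat had medians of 8.39 and 8.41 on the wheat arrays and of 10.06 and 10.13 on the Ae. speltoides arrays. In T. urartu these were 8.75 and 8.69, and in Ae. tauschii 8.71 and 8.68, close to wheat. Over all features the medians of the 4 plants lay between 10.63 and 10.70.

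**Figure D1:**
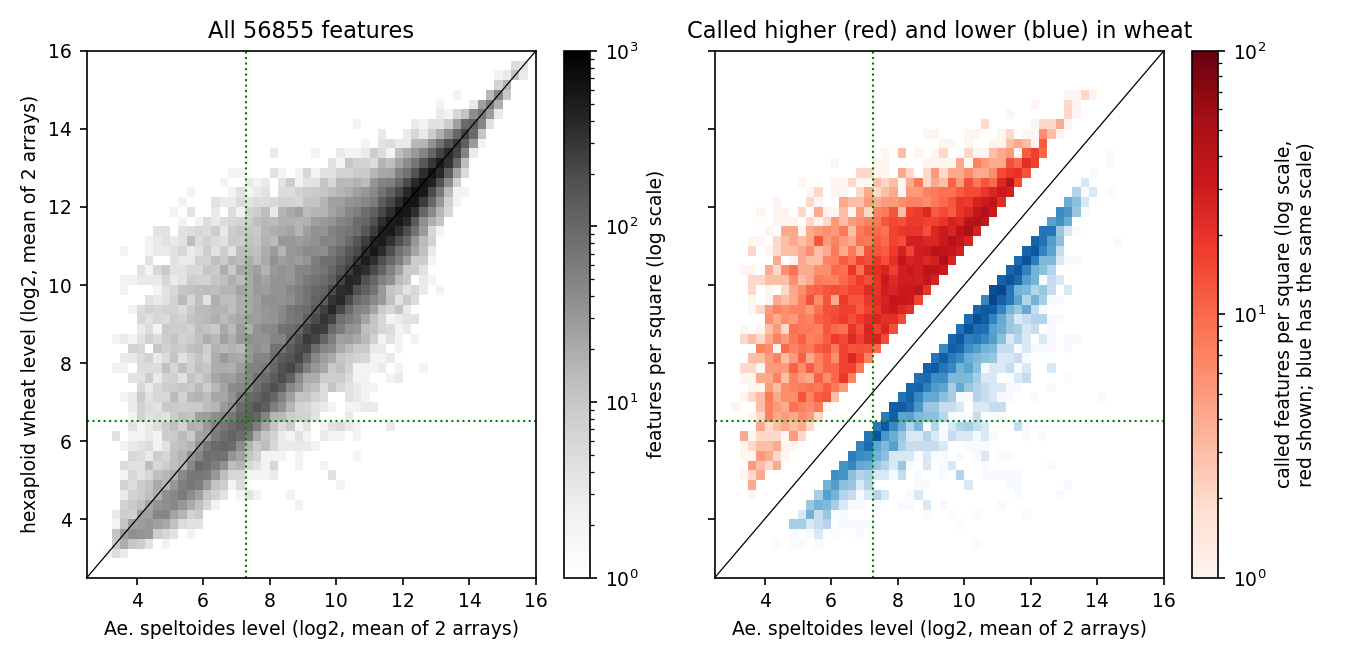
Level in hexaploid wheat (vertical, log2, mean of 2 arrays) against Ae. speltoides (horizontal) for all 56855 features on the left and for the called features on the right, as counts in squares of 0.25 log2; darker squares hold more features, and green dotted lines mark the random control. The 6086 higher features spread far above the diagonal, while the 4073 lower features lie closer below it, with a median difference of -1.33.

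At the dim end of the arrays the median difference was shifted, while calls there went both ways. Features were split into 4 equal parts by their mean level in T. urartu and Ae. tauschii, arrays that are not in the comparison. In the dimmest part, with means up to 8.79, the median of wheat minus Ae. speltoides was -0.46. It was -0.31 and -0.12 in the next parts and 0.01 in the brightest, which starts at 11.97. Of the 4073 lower features 2090 came from the dimmest part and 79 from the brightest. The higher features were spread more evenly, with 2358 and 683. The random control moved the same way as the median of the dim features, and its part in the lower calls was not tested.

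The split into higher and lower features depended on how the arrays were scaled. As deposited, 59.9% of the called features were higher in wheat. The share was 58.6% with median scaling (6015 higher and 4243 lower) and 63.7% with values under the highest random control set to it (5160 and 2935). With cyclic loess it was 78.2% (7209 and 2004), and with the arrays scaled to the random control 93.9% (14081 and 920). The last setting shifts every difference by the difference of that control. Taken over all features, the median of wheat minus Ae. speltoides was -0.15 in the deposited values, -0.17 with median scaling, -0.06 with the floor, -0.01 with loess and 0.60 with the control. No feature called in both the deposited values and another scaling changed direction. For all but cyclic loess this was fixed in advance. Median scaling and scaling to the control shift all differences by a constant under 1 log2, and the floor cannot reverse a called difference.

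Under all 5 scalings, 5080 of the 6086 higher features (8.94% of all features) and 804 of the 4073 lower ones (1.41% of all) were called alike. These are given beside the full counts below. The lower ones among them are by construction those with large differences, of -1.75 log2 and beyond. Scaling to the control raises every difference, which removes lower calls and favours higher ones, and all 6086 higher calls were kept under it. The imbalance of 5080 and 804 is thus partly set by that scaling. Their median difference was -2.33 (5.04-fold), and that of the higher ones 2.17 (4.51-fold).

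**Figure D2:**
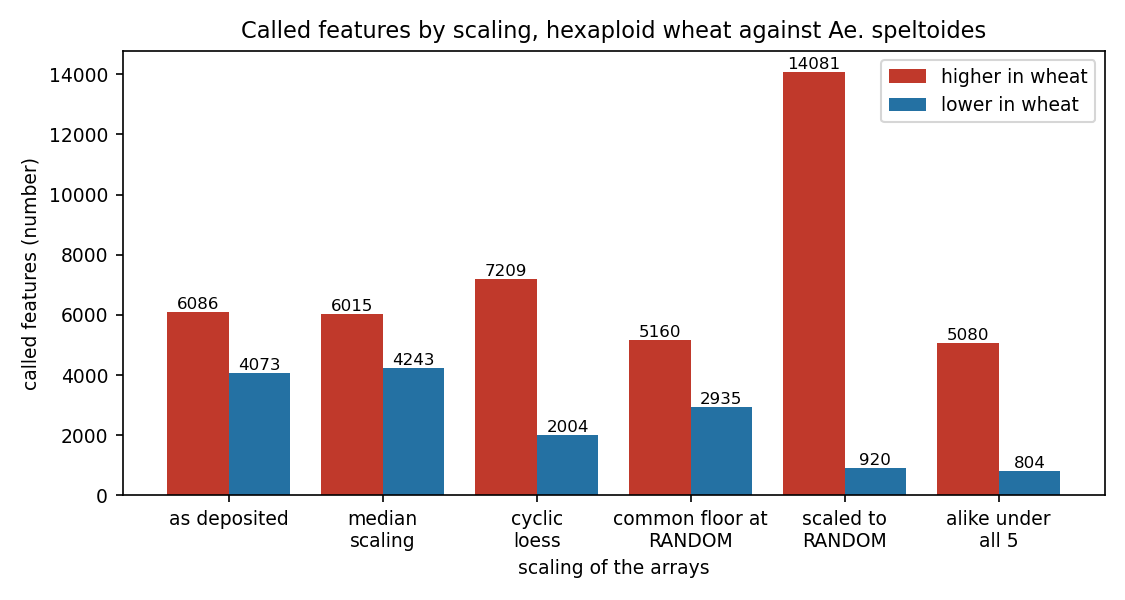
Number of features called higher (red) and lower (blue) in hexaploid wheat than in Ae. speltoides under each scaling of the arrays, and those called alike under all 5. Higher calls range from 5160 to 14081 and lower calls from 920 to 4243.

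The largest differences measured above background in both plants reached more than 5 log2. Taestivum_ESTC000365 read 13.23 and 13.35 on the wheat arrays and 7.36 and 7.85 on the Ae. speltoides arrays. It was 51.3-fold higher in wheat (difference 5.68, SE 0.23, limma adjusted p = 4.61e-07). In Ae. tauschii it read 13.24 and 13.31, level with wheat, and in T. urartu 7.52 and 7.40, level with Ae. speltoides. Taestivum_ESTC009088 read 13.31 and 13.33 in wheat and 7.90 and 8.12 in Ae. speltoides, and was 39.7-fold higher in wheat (difference 5.31, SE 0.33, limma adjusted p = 4.29e-06). It was high in both other progenitors, at 13.39 and 13.58 in T. urartu and at 12.24 and 11.63 in Ae. tauschii. Both features were thus low in Ae. speltoides and high in at least 1 other progenitor.

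Among the lower features, Aspeltoides_ESTC002446 read 7.14 and 7.17 on the wheat arrays and 14.11 and 13.99 on the Ae. speltoides arrays. It was 119-fold lower in wheat (difference -6.90, SE 0.21, limma adjusted p = 2.44e-07). T. urartu, at 7.63 and 8.09, and Ae. tauschii, at 7.82 and 8.08, were low too. Taestivum_ESTC035073 read 7.64 and 7.67 in wheat and 13.15 and 13.29 in Ae. speltoides, and was 47.5-fold lower in wheat (difference -5.57, SE 0.20, limma adjusted p = 3.31e-07). Ae. tauschii was high as well, at 12.17 and 11.99, whereas T. urartu, at 7.53 and 7.54, was level with wheat. The wheat arrays of this feature lay below both of the diploids that were high.

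Other features were at background in the lower plant, so that only a bound of the fold can be given. Background here means at or below the random control on both arrays, and the bound is taken against that control. The strongest higher one read 12.97 and 13.06 in wheat and 6.40 and 5.77 in Ae. speltoides, at least 53.6-fold higher in wheat (limma adjusted p = 0.000555). Ae. tauschii shared the high level, at 13.43 and 13.29. The strongest lower one read 4.45 and 5.08 in wheat and 13.09 and 13.07 in Ae. speltoides, at least 93.8-fold lower in wheat (limma adjusted p = 3.2e-07). T. urartu and Ae. tauschii were at background too, at 5.32 and 4.81 and at 4.54 and 5.09. The line with the 2BS.2RL translocation, in which a rye arm replaces the long arm of chromosome 2B, read 11.80 and 12.05. Rye itself was at background, at 5.77 and 6.33, and the source of the high level was not tested. The 2 hexaploid lines thus differed widely in this feature.

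Some called features were at background in one plant and above it on both arrays of the other. Ae. speltoides was at background and wheat above it in 1913 of the 6086 higher features (31.4%), with median levels of 5.92 and 9.07. The reverse was found in 244 of the 4073 lower ones (5.99%), with medians of 8.18 in Ae. speltoides and 5.99 in wheat. Over all features, called or not, Ae. speltoides was at background in 11.4% and wheat in 7.36%. The random control that sets this limit was itself higher on the Ae. speltoides arrays, which favours the first of these directions. In 78 higher and 348 lower features both plants were at background, and no fold is given for these. Both plants were above background on all 4 arrays in 3611 higher and 3138 lower features.

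T. urartu and Ae. tauschii were read next in these 1913 features. Both T. urartu and Ae. tauschii were above background on all their arrays in 528 of them (27.6%). T. urartu was above and Ae. tauschii at background in 328 (17.1%), and the reverse held in 334 (17.5%). In 458 (23.9%) both were at background, and in the other 265 at least 1 of them was above it on 1 array of 2. Of all 6460 features at background in Ae. speltoides, called or not, the first 4 shares were 10.8%, 9.33%, 8.16% and 51.9%. Wheat too was at background in 3527 of these 6460, whereas the 1913 were chosen with wheat above it, so the 2 sets are not alike. Medians of the 458 were 8.76 in wheat and 5.45 to 5.55 in the diploid progenitors. Called alike under all 5 scalings were 1246 of the 1913. Of the 244 features at background in wheat, 83 (34.0%) were at background in both T. urartu and Ae. tauschii, and 16 (6.56%) were above it in both. Among all 4187 features at background in wheat, called or not, these shares were 69.5% and 1.55%. Ae. speltoides too was at background in 3527 of the 4187, but by choice not in the 244.

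Each called feature was next placed by whether T. urartu and Ae. tauschii lay on the wheat side or on the Ae. speltoides side of the midpoint between those 2 plants. The placing uses the wheat and Ae. speltoides arrays that also made the call, so it is a description, and no test is attached. Of the 6086 features higher in wheat, both lay on the wheat side in 1986 (32.6%), T. urartu alone in 1260 (20.7%), Ae. tauschii alone in 1319 (21.7%) and neither in the other 1521. Over all features, called or not, the first 3 shares were 33.1%, 21.8% and 20.0%, so the share of each placing among the higher calls was near that of all features.

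Where both lay on the wheat side, the 1986 features had a median level of 10.92 in wheat, 11.22 in T. urartu, 11.14 in Ae. tauschii and 8.50 in Ae. speltoides. The levels were low in Ae. speltoides against all 3 other plants. Taestivum_ESTC009088, described above, led this group, and the next feature read 12.88 and 12.47 in wheat and 7.38 and 7.71 in Ae. speltoides, 35.1-fold higher in wheat (limma adjusted p = 4.29e-07). Its levels were 10.34 and 10.42 in T. urartu and 11.26 and 11.22 in Ae. tauschii, below wheat and far above Ae. speltoides.

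Where T. urartu alone lay on the wheat side, medians were 10.40 in wheat, 11.15 in T. urartu, 7.80 in Ae. tauschii and 7.92 in Ae. speltoides. Where Ae. tauschii alone did, they were 10.42 in wheat, 11.03 in Ae. tauschii, 7.71 in T. urartu and 7.88 in Ae. speltoides. In both of these groups the median in wheat lay below that in the one high diploid. The leading feature of the first read 12.36 and 12.48 in wheat, 7.69 and 7.82 in Ae. speltoides, 11.91 and 11.42 in T. urartu and 6.07 and 6.57, at background, in Ae. tauschii. It was 25.3-fold higher in wheat than in Ae. speltoides (limma adjusted p = 6.52e-07). The second was led by Taestivum_ESTC000365, and its next feature was 31.6-fold higher (limma adjusted p = 5.09e-07), with 12.68 and 12.56 in wheat, 7.45 and 7.82 in Ae. speltoides, 11.05 and 11.002 in Ae. tauschii and 8.10 and 7.64 in T. urartu. Each of these was low in Ae. speltoides and in the other diploid, and the arrays of the high and the low plants did not overlap.

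The 1521 features in which neither diploid lay on the wheat side had medians of 10.29 in wheat, 7.22 in T. urartu, 7.30 in Ae. tauschii and 7.48 in Ae. speltoides. The call and the placing put wheat above all 3 progenitor means in each of them. It was at least 1 log2 above all 3 in 1416, a count that this choice favours. Of all 14340 features placed as neither, called or not, wheat lay at least 1 log2 beyond all 3, above or below, in 1756. All 3 progenitors were at background in 476 of the 1521, which were chosen for low levels in these plants. Over all 56855 features, called or not, all 3 were at background in 3354. In the translocation line, whose levels took no part in choosing these features, the median was 10.25, and 1407 (92.5%) lay within 1 log2 of wheat. Over all features 98.2% did. The feature that led this group read 13.26 and 13.28 in wheat and 7.94 and 8.19 in Ae. speltoides, 36.9-fold higher in wheat (limma adjusted p = 9.82e-06). It read 6.11 and 7.12 in T. urartu, 8.86 and 9.94 in Ae. tauschii, and 13.31 and 13.18 in the translocation line.

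**Figure D3:**
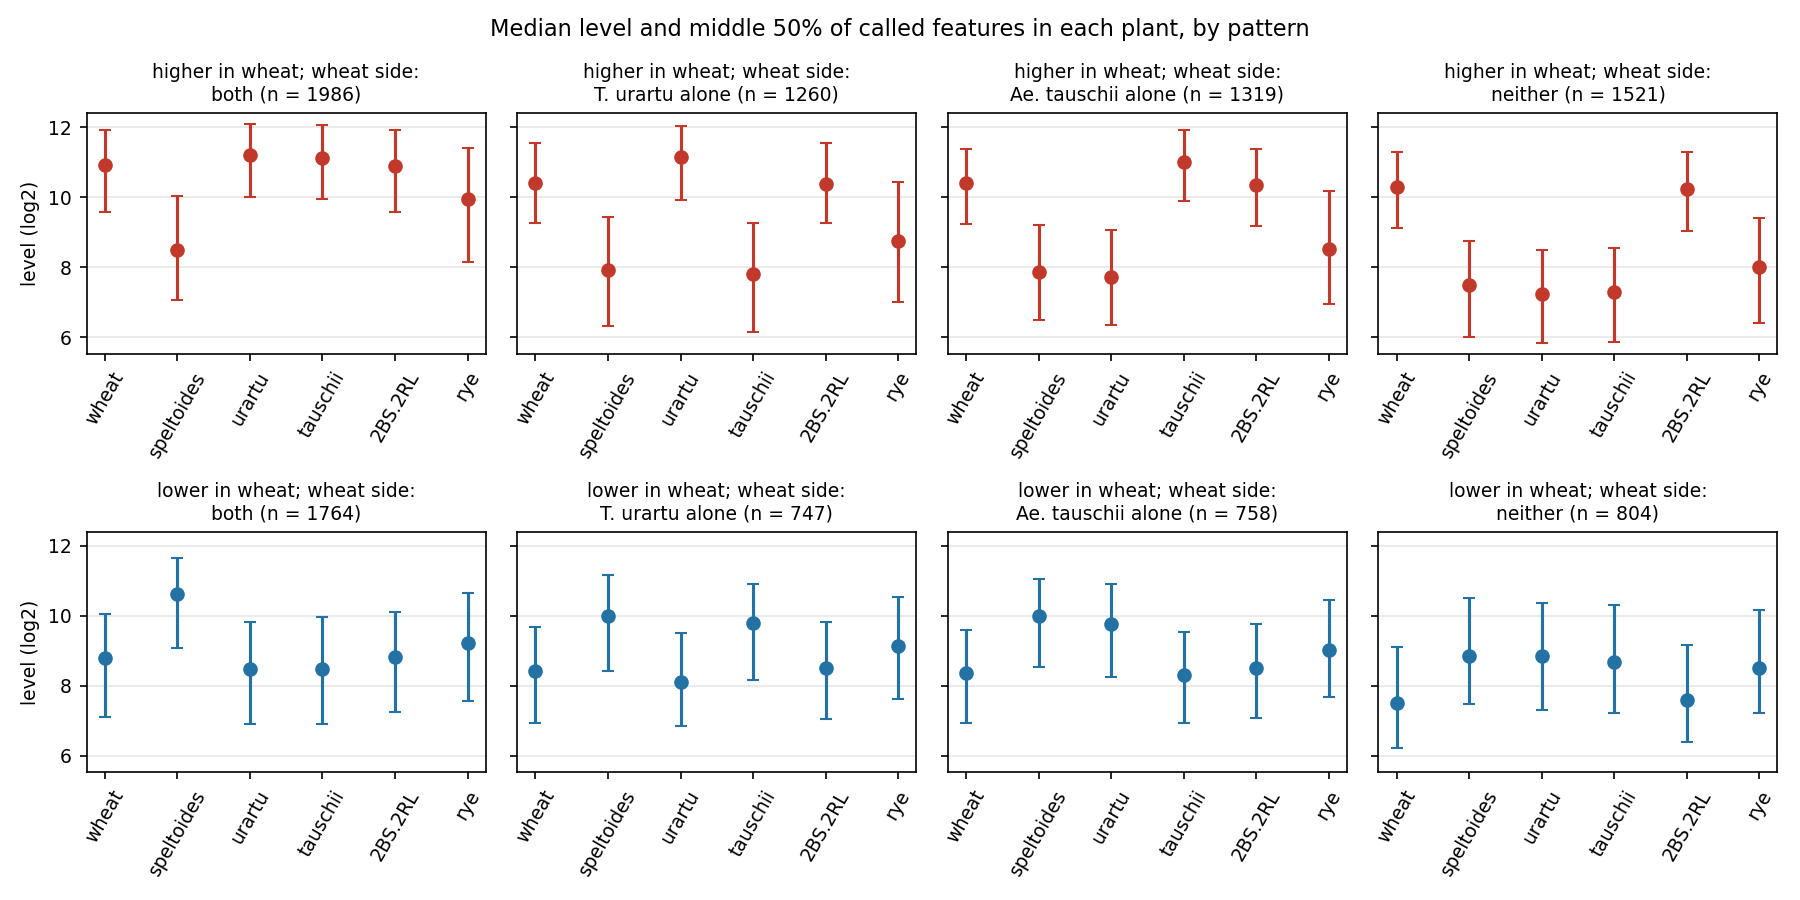
Median level (point, log2) and middle 50% (bar) of the called features in each of the 6 plants, with the features higher in wheat above and those lower in wheat below, placed by which of T. urartu and Ae. tauschii lay on the wheat side. In the group placed as neither and higher in wheat, the hexaploid lines stand at 10.29 and 10.25 and the progenitors between 7.22 and 7.48.

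Of the 4073 features lower in wheat, both T. urartu and Ae. tauschii lay on the wheat side, away from Ae. speltoides, in 1764 (43.3%). T. urartu alone did in 747 (18.3%), Ae. tauschii alone in 758 (18.6%) and neither in 804 (19.7%). Over all features, called or not, the 4 shares were 33.1%, 21.8%, 20.0% and 25.2%. The order depended on the rule. With the wheat side set at least 1 log2 from Ae. speltoides, 1195 lower features were placed as both and 1581 as neither. Among the 804 lower features called alike under all scalings, a different set that happens to be of equal size, both lay on the wheat side in 468 (58.2%) and neither in 65 (8.08%). These 468 had medians of 10.86 in Ae. speltoides, 8.23 in wheat, 7.86 in T. urartu and 7.96 in Ae. tauschii. The levels were high in Ae. speltoides alone among the 4 plants. Aspeltoides_ESTC002446 led the group of 1764, and the next feature read 12.68 and 12.51 in Ae. speltoides and 7.94 and 6.98 in wheat, 35.1-fold lower in wheat (limma adjusted p = 3.92e-05). T. urartu read 7.80 and 7.83, and Ae. tauschii 9.65 and 9.02.

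Where T. urartu alone lay on the wheat side, the median was 9.80 in Ae. tauschii and 9.99 in Ae. speltoides, against 8.12 in T. urartu and 8.41 in wheat. Where Ae. tauschii alone lay on the wheat side, the median was 9.78 in T. urartu and 9.98 in Ae. speltoides, against 8.32 in Ae. tauschii and 8.38 in wheat. Taestivum_ESTC035073 led the first of these groups. The next feature there was 22.2-fold lower in wheat (limma adjusted p = 6.6e-07), with 6.81 and 6.70 in wheat, 11.46 and 10.99 in Ae. speltoides, 10.43 and 10.24 in Ae. tauschii and 4.84 and 4.83, at background, in T. urartu. It was highest in rye, at 13.15 and 13.19. The leading feature of the second group was 32.8-fold lower (limma adjusted p = 1.41e-05), with 7.27 and 6.93 in wheat, 12.20 and 12.07 in Ae. speltoides, 10.72 and 11.76 in T. urartu and 8.64 and 8.96 in Ae. tauschii.

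In the group in which neither lay on the wheat side, wheat had a median of 7.52 and the 3 progenitors medians of 8.69 to 8.85. The call and the placing put wheat below all 3 in each of these 804, and it was below by at least 1 log2 in 236. Under the common floor this group held 407 features, and with cyclic loess 200. Its leading feature read 8.01 and 7.79 in wheat and 11.84 and 11.67 in Ae. speltoides, 14.5-fold lower in wheat (limma adjusted p = 4.43e-06). T. urartu read 10.38 and 10.26, and Ae. tauschii 10.80 and 10.42. No array of the 3 progenitors overlapped the wheat arrays for it.

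**Figure D4:**
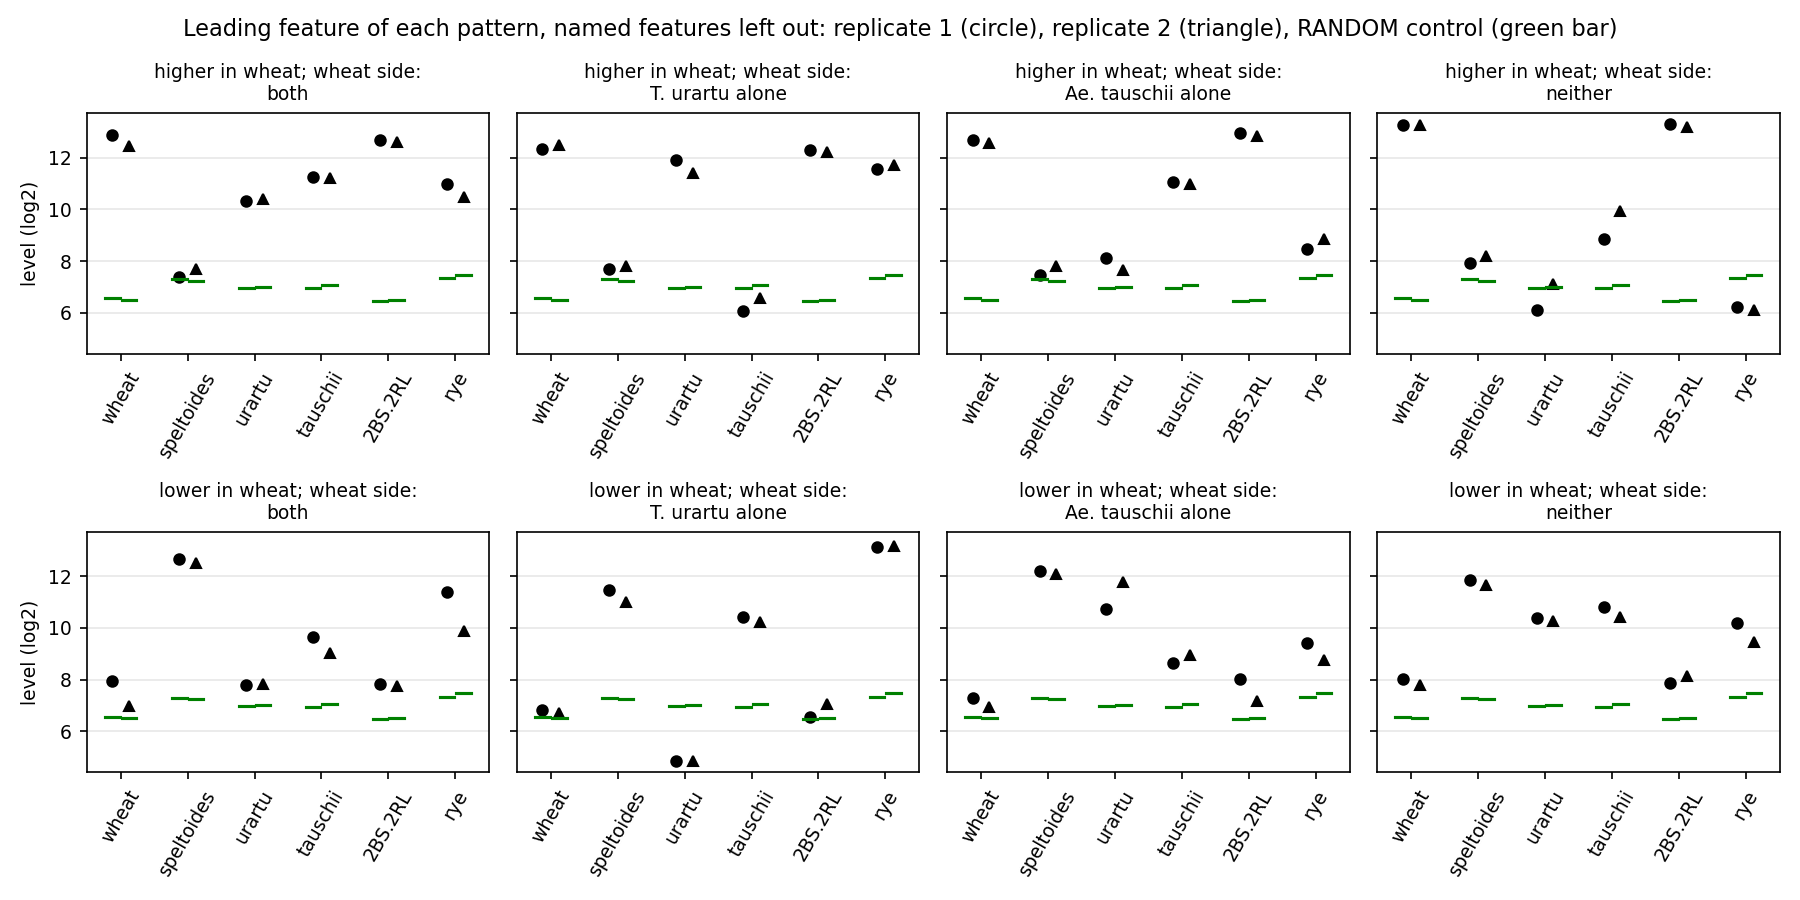
Level (log2) on each of the 12 arrays for 1 feature of each placing, the one with the largest difference between hexaploid wheat and Ae. speltoides with both above background once the 4 features named by ID are left out; circles are replicate 1, triangles replicate 2 and green bars the random control of that array. In each panel the wheat and Ae. speltoides arrays lie apart, and the translocation line lies near wheat.

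Whether the changed features also differ between the remaining progenitors was tested on arrays that are not in the comparison of wheat with Ae. speltoides. Ae. tauschii and T. urartu differed in 10457 of all features, or 18.4%. Among the features higher in wheat than in Ae. speltoides, 3241 (53.3%) differed between Ae. tauschii and T. urartu. The directions were balanced, with 1638 higher in Ae. tauschii and 1603 higher in T. urartu. Among the features lower in wheat the number was 1057 (26.0%), with 517 higher in Ae. tauschii and 540 higher in T. urartu. For the features called alike under all scalings, the shares were 53.4% of the higher and 40.7% of the lower ones. Both tests draw on one estimate of spread for each feature, which favours joint calls of features that vary little between replicates. How much this adds to the shares was not tested.

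The placing followed these calls. Of the 1260 higher features with T. urartu alone on the wheat side, 1158 were called higher in T. urartu than in Ae. tauschii, and of the 1319 with Ae. tauschii alone, 1214 were called higher in Ae. tauschii. The placing fixes this direction. Where both or neither lay on the wheat side, the placing does not fix it, and 616 of 1986 and 253 of 1521 were called. These were balanced too, with 294 and 130 higher in Ae. tauschii and 322 and 123 higher in T. urartu.

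A further comparison, of group means other than those of wheat and Ae. speltoides, was added after the data had been seen. It draws on the same estimate of spread over all 12 arrays as the main comparison, which again favours joint calls. The translocation line was set against the mean of T. urartu and Ae. tauschii. It was higher for 7.71% of all features and lower for 4.2%. Among the 6086 features higher in wheat than in Ae. speltoides, 2451 (40.3%) were higher and 231 (3.80%) lower in the translocation line. Among the 4073 lower features 346 (8.49%) were higher and 568 (13.9%) lower. Of the 1521 higher features with neither diploid on the wheat side, 1399 (92.0%) were higher. That group was chosen partly for its low levels in T. urartu and Ae. tauschii.

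Wheat was also set against the mean of the linear intensities of its 3 progenitors, the level that an even mix of their RNA would have. Over all features, wheat lay within 1 log2 of that mean in 89.9%, at least 1 log2 above it in 4.68% and at least 1 log2 below it in 5.39%. Of the 6086 features higher than in Ae. speltoides, 3745 (61.5%) lay within 1 log2 of the mean, 2221 (36.5%) above and 120 (1.97%) below. Of the 2221 above, 1503 were features with neither diploid on the wheat side, a group in which the choice puts wheat above all 3 progenitors. Of the 4073 lower features, 2405 (59.0%) lay within, 1668 (41.0%) below and 0 above. The 0 was fixed in advance, because a feature at least 1 log2 below 1 of the 3 progenitors cannot lie 1 log2 above their mean. Of the 804 called lower under all scalings, 705 (87.7%) lay at least 1 log2 below the mean. Their differences from Ae. speltoides are large by construction, which favours this. These counts carry no test, because Ae. speltoides enters both the call and the mean.

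The first part of each feature ID, its prefix, resembles a species name, though no source used here states its meaning. Features with the prefix Aspeltoides were higher in wheat in 49 and lower in 253 of 2489 cases. These are 1.97% and 10.2%, against 10.7% and 7.16% of all features. Their median difference was -0.23, against -0.15 for all. Called alike under all scalings were 39 higher and 92 lower (1.57% and 3.70%, against 8.94% and 1.41% of all). In 152 of the 253 lower ones both T. urartu and Ae. tauschii lay on the wheat side, and their medians were 10.97 in Ae. speltoides, 9.01 in wheat, 9.10 in T. urartu and 9.07 in Ae. tauschii. All 4073 lower features had the same order, with medians of 10.10, 8.40, 8.73 and 8.69, and the higher level in Ae. speltoides is fixed by the call.

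Features with the prefix Taestivum made up 42683 of all, with 5327 higher (12.5%) and 3172 lower (7.43%) in wheat. Those with the prefix Tmonococcum, like the name of the einkorn wheat close to T. urartu, gave 441 higher (7.70%) and 259 lower (4.52%) of 5724. Of the 441 higher ones T. urartu alone lay on the wheat side in 146 (33.1%) and Ae. tauschii alone in 28 (6.35%). Among the Taestivum features these shares were 20.0% and 22.8%. The 441 had a median of 11.50 in T. urartu, 10.98 in wheat, 10.03 in Ae. tauschii and 8.76 in Ae. speltoides. Features with the prefix Scereale gave 256 higher (4.47%) and 369 lower (6.44%) of 5731. The prefixes Asquarrosa and Atauschii held 114 features each, with 7 and 6 higher and 14 and 6 lower.

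**Figure D5:**
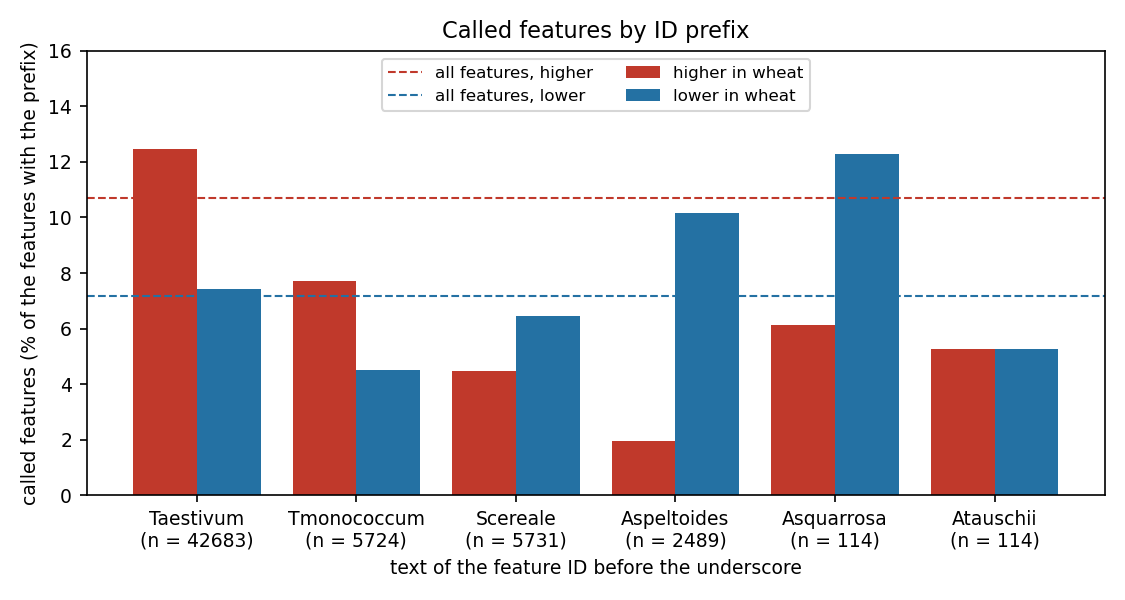
Share of features called higher (red) and lower (blue) in hexaploid wheat than in Ae. speltoides by the prefix of the ID, with the number of features; dashed lines give the shares over all features, 10.7% and 7.16%. The prefix Aspeltoides has 1.97% higher and 10.2% lower.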

How the data were processed

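Total RNA of whole seedlings was hybridised to 1-colour NimbleGen arrays with probes of 60 bp, per the labels and the series design. The deposited intensity values, 1 for each feature and array, come from RMA run by the authors, per the submitters' processing notes, with no version given. The linear scale was read from the values (array medians 1588 to 1667). RMA as usually run makes the distributions of arrays alike, which hides any change in total transcript. Precision is limited by the number of arrays. In the table of raw probes only the probe names were used, to count probes for each feature. Its 12 intensity columns carry codes that match no label and were not used, so no correction of raw probes was tried. Which array lay on which slide is not given, so a batch test by slide was not possible.

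The 8 control features were left out, no filter or offset was applied, and a model of 6 group means was fitted to all 12 arrays in limma 3.58.1 under R 4.3.3 (6 residual and 2.97 prior degrees of freedom). P-values were adjusted over all 56855 features by Benjamini-Hochberg. P-values rest on the spread between the 2 arrays of a plant, pooled over the 6 plants. The Ae. speltoides replicates were less alike than those of wheat, which a pooled spread does not show. Features can share transcripts, so counts of features are not counts of genes. Comparisons, lists and placings were chosen with earlier results of these data known. Named are, in each direction, the 2 called features that differ most among those with no overlap between the plants' arrays and with the lower plant above the random control on both arrays. For each placing the feature leading by the same rule once those 4 are left out, and the strongest bound in each direction, are described without an ID. Alternatives were other scalings, a fit to the 4 arrays, a filter on dim features, a higher minimum difference, the replicate number as a block, each of the 4 arrays left out and another rule for the placing.

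The steps were tested on simulated data for wheat against Ae. speltoides, drawn for all 56855 features from their own levels and spread. The right call was made for 79 of 100 features changed by 1.5 log2 and for 97 of 100 changed by 3 log2. Of the unchanged features 13 were called. In the simulation wheat was given the Ae. speltoides level except in the changed features, which were far fewer than the real calls. It held no shift of the dim end, so the 13 do not bear on lower calls among dim features.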

Additional observations from a re-analysis of the deposited data

Results flagged for a closer look

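Among the 7 sGFP control features, which entered no comparison, 4 lay above the random control on every one of the 12 arrays. Their purpose is not stated in the labels. All 4 were lower in hexaploid wheat than in Ae. speltoides (n = 2 arrays each), with no overlap between the arrays of the plants. The brightest averaged 11.05 in wheat and 11.26 in Ae. speltoides (log2), a difference of -0.21. The others differed by -0.59, -0.66 and -0.55, against -0.75 for the random control.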

How the results depend on the processing

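Leaving out each of the 4 arrays in turn, where the remaining array of that plant is taken to vary as the other plants do, gave 9124 to 10914 called features, 5636 to 6583 higher and 3488 to 4331 lower. All 52 counts examined this way stayed within 1.5 times. Of 76 comparisons of a count with another alternative, 48 did. The described single features, which were picked for large differences, kept their call in all 70 comparisons with a scaling or the replicate block and in all 56 with an array left out. Fitting the 4 arrays alone called 9894 features, 9574 of them the same. Without the dimmest 25% of features 5926 of the 42641 tested were called (3808 higher and 2118 lower). At a difference of at least 2 log2 there were 3894 (3229 and 665). With cyclic loess 2004 were lower, of which T. urartu and Ae. tauschii both lay on the wheat side in 1108, T. urartu alone in 326, Ae. tauschii alone in 370 and neither in 200, and 669 differed between Ae. tauschii and T. urartu. Scaled to the random control, 14081 were higher (4795, 3104, 3160 and 3022 in the same order, 5262 differing between those diploids) and 920 lower (556, 140, 163 and 61, with 356 differing). With the common floor the lower features with neither on the wheat side were 407. Requiring 1 log2 from Ae. speltoides for the wheat side put 1195 lower features under both and 1581 under neither, which became the largest group. Counting as background up to 1 log2 above the random control, chosen after seeing the data, gave 3128 higher features with Ae. speltoides at background and 1375 lower ones with wheat at background, in place of 2045 and 791. That rule admits more features by construction. The cause of the changes with scaling was not tested. Nothing in the labels pairs arrays by replicate number. Wheat and Ae. speltoides arrays of one number deviated from their means with a correlation of 0.13 across features. With the replicate block 10253 features were called, 10098 of them the same.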

Other observations

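The features that separate hexaploid wheat from Ae. speltoides were also read in rye and in the translocation line, as values without a test. Those higher in wheat had a median of 8.83 in rye, nearer to Ae. speltoides (7.99) than to wheat (10.51), and those lower in wheat one of 9.04 in rye, between 8.40 in wheat and 10.10 in Ae. speltoides. Of the 1913 features above background in wheat and at background in Ae. speltoides, rye was at background in 1150 (60.1%) and above it on both arrays in 529 (27.7%). Among all 6460 features at background in Ae. speltoides, called or not, rye was at background in 73.5% and above it in 964. The translocation line was above background on both arrays in 1849 of the 1913 (96.7%) and at background in 33. Among the 6460 it was above in 2494 and at background in 3361, and wheat was at background in 3527.

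The translocation line was also read in the 244 features at background in wheat and above it in Ae. speltoides. It was above background on both arrays in 37 of them (15.2%) and at background in 154 (63.1%). Of all 4187 features at background in wheat, called or not, it was above in 190 and at background in 3479. These 37 had medians of 8.99 in Ae. speltoides, 7.48 in the translocation line and 6.07 in wheat. The labels do not say from which wheat the translocation line was bred, and the difference was not tested.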
